A study of Mus musculus with 24 samples.

Results

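Detoxification enzymes were followed in fibro/adipogenic progenitors (FAPs), resident stromal cells of muscle that support its regeneration and can turn into fat or scar-forming cells. The 10 genes are Inmt, Ces1d, Ephx1, Fmo1, Fmo2, Cyp1b1, Sult1a1, Gstm1, Gstm2 and Gstt1. They were taken from the probes annotated to them, 13 of the 25697 on the array, out of 16593 named genes with a probe. The choice used these data: Inmt and Ces1d were picked because they fell most steeply on activation, and the others were joined to them by function. Values of activated against quiescent cells are therefore given for the 10 genes as a description, with no test. The differences between ages, which did not choose the genes, were tested.

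The 24 Illumina bead arrays hold 6 biological replicates, per the design text, of each of 4 groups. Old activated FAPs came from mice of 20 to 24 months, 3 days after intramuscular injection of 50 µl of 50% glycerol, an injury that is followed by fat deposition. Old quiescent FAPs came from uninjured mice of 20 to 24 months. Young activated FAPs came from mice of 2 to 4 months, 3 days after the same injury, and young quiescent FAPs from uninjured mice of 2 to 4 months. All mice were male, wildtype and of the C57BL/6J strain, and tibialis anterior, gastrocnemius and quadriceps muscles were pooled before the cells were sorted. The sources used here do not name the markers used for sorting. Arrays of a group share a letter in their column names, which is not explained, and an effect of what it stands for cannot be told apart from that of group.

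Enzymes of this kind act on drugs, toxins and endogenous small molecules in stages. Oxidation or hydrolysis first exposes a reactive group, and a transferase then attaches a sulfate, methyl or glutathione group. Sulfate and glutathione make the product easier to export. Many of them are abundant in liver, and several are also found in the stroma of other tissues. Part of the pathway is induced through the aryl hydrocarbon receptor, of which Cyp1b1 is a textbook target.

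Promoter sequences are shown for the genes on which the results turn, as far as the table of promoters holds them: Inmt, with a steep fall on activation, Sult1a1, with an age difference, and Cyp1b1, which alone among the 10 genes had a higher mean in activated cells in both ages. They are RefSeq windows of 300 bases in build GRCm38.p6, from 250 bases before the transcription start to 50 bases after it, read 5′ to 3′ on the minus strand. The Sult1a1 window lies inside the annotated gene, chr7:126672865-126690443, so it belongs to an internal start and not to the outermost one. Capitals mark TATAAA in the Inmt window, searched on the sense strand only, and CACGC in the Cyp1b1 window, which is the reverse complement of GCGTG, the core of the aryl hydrocarbon receptor element. The TATAAA search was added after the windows had been read.
Inmt promoter, chr6:55174941-55175240: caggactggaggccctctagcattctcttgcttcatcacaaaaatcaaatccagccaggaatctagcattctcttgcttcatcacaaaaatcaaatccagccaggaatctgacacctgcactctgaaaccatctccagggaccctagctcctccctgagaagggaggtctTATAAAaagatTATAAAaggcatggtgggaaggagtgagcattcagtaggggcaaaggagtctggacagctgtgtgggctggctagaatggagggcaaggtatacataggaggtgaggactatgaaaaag
Sult1a1 promoter, chr7:126676369-126676668: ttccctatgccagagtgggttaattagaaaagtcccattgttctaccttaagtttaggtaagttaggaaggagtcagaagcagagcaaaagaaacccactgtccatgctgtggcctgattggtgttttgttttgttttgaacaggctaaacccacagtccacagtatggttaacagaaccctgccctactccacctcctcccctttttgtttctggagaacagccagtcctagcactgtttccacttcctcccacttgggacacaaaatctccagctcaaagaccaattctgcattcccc
Cyp1b1 promoter, chr17:79715012-79715311: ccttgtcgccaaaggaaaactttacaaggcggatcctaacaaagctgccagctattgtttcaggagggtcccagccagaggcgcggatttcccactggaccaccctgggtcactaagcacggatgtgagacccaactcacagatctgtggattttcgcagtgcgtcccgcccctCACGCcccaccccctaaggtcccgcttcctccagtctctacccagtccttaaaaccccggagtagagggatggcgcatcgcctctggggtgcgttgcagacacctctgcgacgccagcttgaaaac

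Of the 10 genes, 8 had entries among the 32851 promoter windows, Ces1d and Fmo1 being those without. GCGTG, read on both strands, occurred in 32.4% of all windows and in those of 2 of the 8 genes, Cyp1b1 and Gstm1. The antioxidant response element core TGACNNNGC, also read on both strands, occurred in 12.4% of all windows and in those of 0 of the 8 genes. TATAAA occurred in 8.32% of all windows and in those of Inmt, Ephx1 and Gstm1. In the Inmt window its matches began 80 and 69 bases before the start. These matches describe letters in a window and nothing more.

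All values below are log2 intensities after background correction and quantile normalization, with n = 6 arrays per group, and each is set only against the same probe. A probe counted as detected on an array at a detection p under 0.01. Of the 10 genes, 9 were among the 7576 named genes that passed the filter of detection on at least 6 of 24 arrays. Fmo2, a flavin-containing monooxygenase, was detected on 3 of 24 arrays, 0 of them activated, and was not tested. Its values ran between 4.47 and 5.38 in old activated, 4.52 and 5.38 in old quiescent, 4.33 and 4.81 in young activated, and 4.51 and 4.89 in young quiescent arrays.

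The stromal identity and the other cells in the sorts were measured from marker lists. Pdgfra and Dcn, both on the FAP and fibroblast list, were detected on every array, and Col1a1, on the same list, on 1 array. Thy1, also listed, averaged 8.90 in old activated and 8.09 in old quiescent cells. In young cells it averaged 9.86 in activated and 9.38 in quiescent arrays, against the direction of the score below. The FAP and fibroblast score, the mean log2 intensity of 12 of 15 listed markers, ran between 8.56 and 9.39 in old activated, 9.72 and 10.53 in old quiescent, 8.78 and 9.43 in young activated, and 10.07 and 10.64 in young quiescent arrays. The macrophage and monocyte score (10 of 15 listed markers) ran between 10.45 and 11.53 in old activated, 7.19 and 11.04 in old quiescent, 9.0 and 11.50 in young activated, and 6.60 and 7.48 in young quiescent arrays. Signal of adipocyte and muscle markers was present too. Adipoq, an adipocyte hormone, was detected on 4 old activated, 3 old quiescent, 2 young activated and 2 young quiescent arrays, and Plin1, which coats the lipid droplet, on 0 arrays. Acta1, the actin of muscle fibres, was detected on all 24 arrays, and Pax7, which marks satellite cells, on 0 arrays. Because these are bulk samples, fewer cells of a type and less RNA per cell cannot be told apart.

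**Figure D1:**
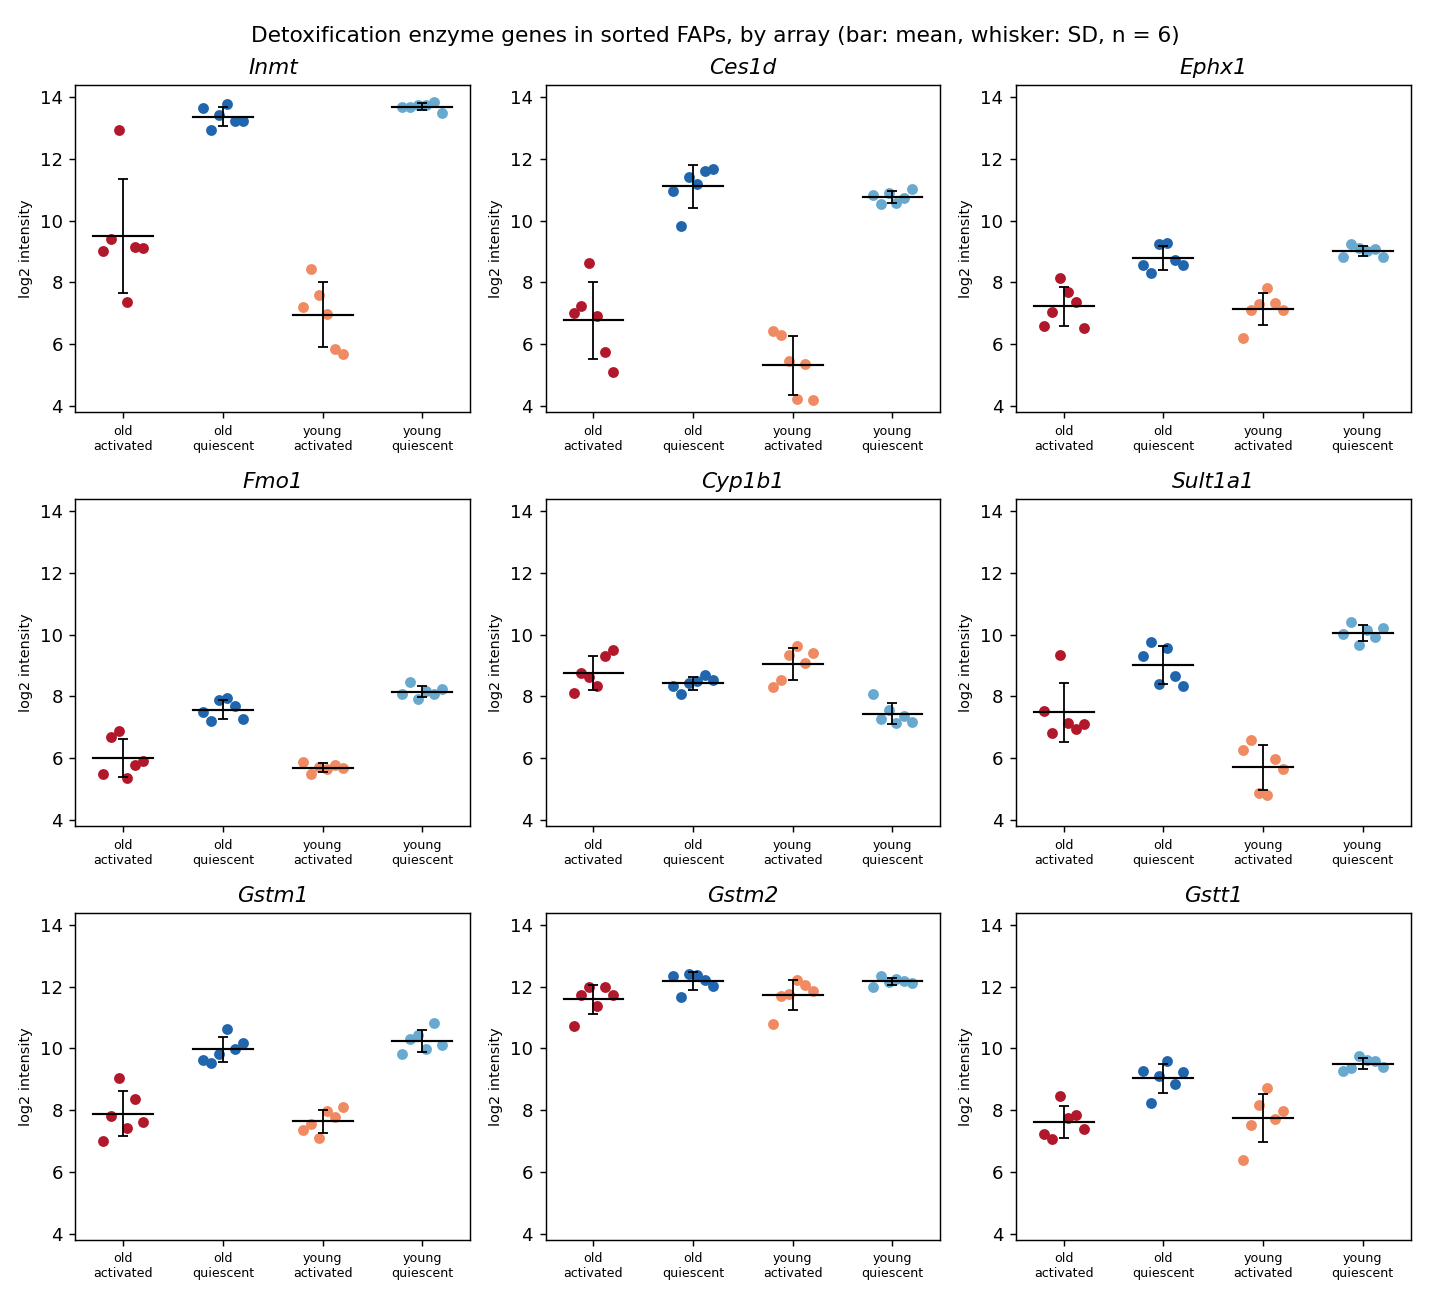
Log2 intensity of 9 detoxification enzyme genes in each array (points) of old activated, old quiescent, young activated and young quiescent FAPs, with the mean (bar) and SD (whisker) of 6 arrays. Inmt, Ces1d and Sult1a1 each have their lowest mean in young activated cells, and 1 old activated array stands at 12.93 for Inmt, next to the quiescent arrays.

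Inmt encodes indolethylamine N-methyltransferase, which methylates tryptamine and other amines, and lies at chr6:55170627-55174990 in GRCm38.p6. It had a lowest, median and highest value of 7.36, 9.14 and 12.93 in old activated arrays, against 12.93, 13.33 and 13.77 in old quiescent arrays. In young cells it had 5.67, 7.09 and 8.45 in activated arrays, against 13.49, 13.71 and 13.86 in quiescent arrays. Quiescent arrays of both ages were tight and bright, and the groups did not overlap in young cells, while in old cells the highest activated array reached the lowest quiescent one. As deposited, before any normalization, the median intensity was 726 in old activated and 9680 in old quiescent arrays, and 220 in young activated and 12900 in young quiescent arrays.

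The mean of Inmt differed by -6.74 ± 0.58 (SE) between young activated and young quiescent cells, a 107-fold lower intensity. In old cells the change was -3.88 ± 0.58, which is 14.7-fold lower. The order of the group means was young quiescent (13.70), old quiescent (13.37), old activated (9.50) and young activated (6.96). Of neighbours in this order, neither the quiescent nor the activated groups of the 2 ages differed past the threshold of the age tests given below. On the deposited normalized values, which carry no background correction, Inmt was 62.1-fold lower in young activated and 12.9-fold lower in old activated cells.

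Ces1d, at chr8:93166072-93197804, encodes a carboxylesterase that hydrolyses ester drugs and also stored triacylglycerol. It had 5.10, 6.95 and 8.64 as its lowest, median and highest value in old activated arrays, against 9.83, 11.31 and 11.68 in old quiescent arrays. In young cells the values were 4.18, 5.41 and 6.42 in activated arrays, against 10.53, 10.78 and 11.04 in quiescent arrays. Activated arrays lay below quiescent ones without overlap in both ages, and 4 of 6 young activated arrays detected the probe at all. The mean change was -5.45 ± 0.47 in young cells (43.6-fold lower) and -4.34 ± 0.47 in old cells (20.3-fold lower). On the deposited normalized values these folds were 13.4 in young and 10.7 in old cells. Ephx1, the microsomal epoxide hydrolase, ran between 6.54 and 8.14 in old activated and 8.30 and 9.29 in old quiescent arrays, and between 6.19 and 7.81 in young activated and 8.83 and 9.24 in young quiescent arrays. Its changes of -1.56 ± 0.27 in old and -1.88 ± 0.27 in young cells were much smaller than those of Ces1d, and its groups too did not overlap.

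Among the oxidising enzymes, Fmo1, a flavin-containing monooxygenase of nitrogen and sulfur compounds, and Cyp1b1, a cytochrome P450 of oestrogens and aromatic hydrocarbons, went opposite ways. Fmo1 ran between 5.36 and 6.86 in old activated and 7.19 and 7.95 in old quiescent arrays, and between 5.47 and 5.88 in young activated and 7.91 and 8.45 in young quiescent arrays. It was lower in every activated array than in every quiescent array of its age, with changes of -1.56 ± 0.22 in old and -2.46 ± 0.22 in young cells. Cyp1b1, at chr17:79706940-79715061, had a lowest, median and highest value of 8.10, 8.69 and 9.51 in old activated arrays, against 8.06, 8.47 and 8.70 in old quiescent arrays. In young cells it had 8.29, 9.20 and 9.64 in activated arrays, against 7.14, 7.31 and 8.06 in quiescent arrays. The young groups did not overlap, with a change of 1.62 ± 0.25 (3.07-fold higher), whereas the old groups overlapped, with a change of 0.35 ± 0.25.

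Sult1a1, at chr7:126672865-126690443, encodes the phenol sulfotransferase. It had 6.80, 7.13 and 9.35 as its lowest, median and highest value in old activated arrays, against 8.33, 8.99 and 9.76 in old quiescent arrays. In young cells it had 4.81, 5.81 and 6.59 in activated arrays, of which 4 of 6 detected it, against 9.65, 10.10 and 10.42 in quiescent arrays. The young groups lay far apart and the old groups overlapped through 1 activated array. The mean change was -4.37 ± 0.38 (20.6-fold lower) in young and -1.53 ± 0.38 (2.89-fold lower) in old cells. On the deposited normalized values the folds were 7.74 in young and 2.17 in old cells.

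The 3 glutathione transferases differed among themselves. Gstm1 ran between 7.01 and 9.05 in old activated and 9.54 and 10.64 in old quiescent arrays, and between 7.11 and 8.11 in young activated and 9.81 and 10.81 in young quiescent arrays. Its change was -2.09 ± 0.28 in old and -2.60 ± 0.28 in young cells, without overlap in either age. A further Gstm1 probe was detected on 0 arrays, and Gstm1 and its close neighbour Gstm2 on chromosome 3 belong to a family of similar sequence, so how far their probes share signal is uncertain. Gstt1 ran between 7.06 and 8.47 in old activated and 8.24 and 9.59 in old quiescent arrays, which overlapped, and between 6.40 and 8.72 in young activated and 9.26 and 9.75 in young quiescent arrays, which did not. It differed by less than Gstm1, by -1.43 ± 0.30 in old and -1.75 ± 0.30 in young cells. Gstm2 differed least, by -0.58 ± 0.22 in old and -0.44 ± 0.22 in young cells. Its values lay between 10.74 and 11.98 in old activated and 11.66 and 12.40 in old quiescent arrays, and between 10.80 and 12.23 in young activated and 11.99 and 12.34 in young quiescent arrays. The 3 Gstm2 probes gave changes between -0.44 and -0.31 in young and between -0.58 and -0.08 in old cells.

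As a description, the activated and quiescent groups did not overlap for 8 of the 9 measured genes in young cells, beside 22.3% of all named genes, and for 4 in old cells, beside 8.96%. The median change of the 9 genes was -2.46 in young and -1.56 in old cells, beside -0.01 and 0.00 over all named genes. Since the genes were chosen on this comparison, nothing is read from these counts and medians.

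**Figure D2:**
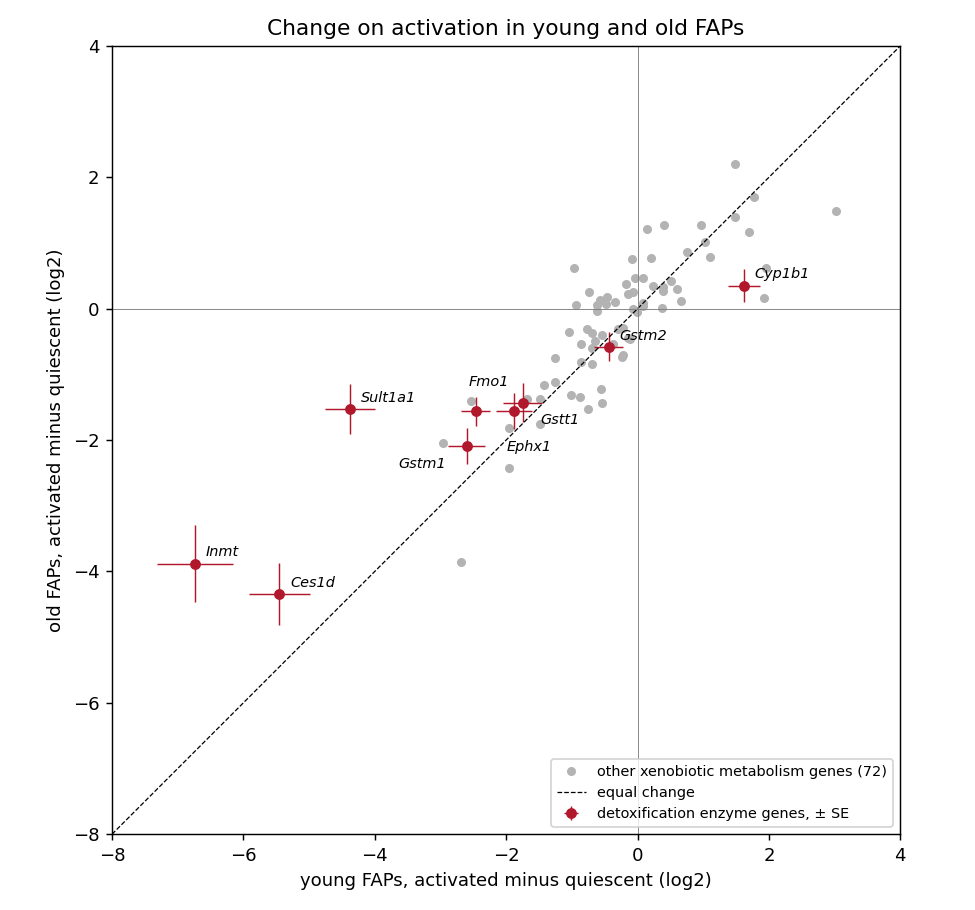
Change of each gene on activation in young FAPs (horizontal axis, log2) and in old FAPs (vertical axis, log2). The 9 detoxification enzyme genes are red with their SE, the 72 other measured xenobiotic metabolism genes grey, and the dashed line marks equal change. Inmt and Sult1a1 lie farthest above the line, at -6.74 and -4.37 in young and -3.88 and -1.53 in old cells.

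The FAP score was itself lower in activated arrays, so each gene was also set against it within the array. Of its 12 markers, 9 were called lower and 0 higher in young cells, and 8 lower and 1 higher in old cells. Pi16 is among the 12, with a change of -3.94 in young and -2.94 in old cells. A rise relative to the score can therefore come in part from the fall of the score. Relative to the FAP score, the change of Inmt on activation was -5.31 in young and -2.80 in old cells, where its groups overlapped, and that of Ces1d -4.02 in young and -3.27 in old cells, without overlap in either age. Sult1a1 differed by -2.94 in young cells without overlap and by -0.46 in old cells with overlap. Fmo1 and Gstm1 likewise overlapped in old but not in young cells. On this scale Gstt1 differed by -0.32 in young and -0.35 in old cells, and Ephx1 by -0.46 in young and -0.49 in old cells, with overlapping groups. Gstm2, whose mean was lower without this scaling, stood 0.99 higher in young and 0.49 higher in old activated cells relative to the score, also with overlap. Cyp1b1 stood 3.05 higher in young and 1.42 higher in old activated cells relative to the score, without overlap in either age.

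One old activated array stood apart for these genes. Array 3 of that group was the highest of its 6 arrays for 8 of the 9 genes, whereas it was the highest for 17.9% of all named genes. Its Inmt value of 12.93 compares with values between 7.36 and 9.41 in the other 5 arrays. Its Ces1d value was 8.64, against 5.10 to 7.25, and its Sult1a1 value 9.35, against 6.80 to 7.52. The FAP score of this array, 9.0, lay within the range of its group. It detected 9943 probes, the most of all 24 arrays, against 6587 to 8658 in the others of its group. Whether this bears on its values was not tested. Without it, Inmt was 23.6-fold and Ces1d 26.3-fold lower in old activated than in old quiescent cells. Within old quiescent cells, array 2 was the lowest for 8 of the 9 genes, all but Sult1a1, beside 20.2% of all named genes. This array had the group's highest macrophage score, 11.04, and the most detected probes of the group, 9365. The part of either in these values was not tested.

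Old and young quiescent cells were compared next, to ask whether age alters these enzymes in uninjured muscle. The sorts of these groups differed in lymphocyte signal. The lymphocyte score (5 of 9 listed markers) ran between 5.65 and 8.46 in old quiescent and 4.51 and 5.02 in young quiescent arrays. Of the 5 markers, 3 passed an adjusted p of 0.05, all higher in old cells. The part of lymphocytes in the values below was not tested. None of the 9 genes passed the adjusted threshold (limma, Benjamini-Hochberg over 8148 features), where 0.607% of all named genes did, and 3 of the 9 had an unadjusted p under 0.05, beside 12.7% of all named genes. The largest difference above 0 was that of Cyp1b1, which was 8.06 to 8.70 in old quiescent and 7.14 to 8.06 in young quiescent arrays. Every old array lay above every young one, the nearest of them both rounding to 8.06, a separation found in 1.15% of all genes in either direction, and the mean difference was 0.99 ± 0.25 (limma adjusted p = 0.0686). Sult1a1 differed by -1.05 ± 0.38 (limma adjusted p = 0.208), with old values on the low side of the young mean in 6 of 6 arrays. Fmo1 differed by -0.58 ± 0.22 (limma adjusted p = 0.242).

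For the other genes the interval shows what the arrays could resolve. The ratio of old to young quiescent cells for Inmt was 0.796, with a 95% interval between 0.351 and 1.82. For Ces1d it was 1.27, between 0.651 and 2.48. For Gstm2 the interval was narrower, between 0.722 and 1.38. These intervals do not show that the ages are alike.

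In activated cells, Sult1a1 was the 1 gene of the 9 to pass the threshold between ages, where 0.277% of all named genes did. It averaged 7.48 ± 0.95 in old activated and 5.70 ± 0.73 in young activated cells (SD), a rise of 1.79 ± 0.38 on the log2 scale or 3.45-fold (limma adjusted p = 0.0363). All old activated arrays lay above all young activated ones, which held for 1.00% of all genes in either direction. The call rested on single arrays: the limma adjusted p was 0.0626 without old activated array 1 and 0.051 without young quiescent array 4. Without young activated arrays 3, 4, 5 and 6 in turn it was 0.114, 0.141, 0.0711 and 0.0764. Over the settings other than leaving out an array the adjusted p lay between 0.0116 and 0.749, and on the deposited normalized values the difference was 0.92 (adjusted p = 0.102). The replicate number as a block gave an adjusted p of 0.0559.

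Inmt averaged 9.50 ± 1.84 in old activated and 6.96 ± 1.05 in young activated cells (SD). The difference of 2.54 ± 0.58 did not pass the threshold (limma adjusted p = 0.0604), with 6 of 6 old arrays above the young mean. It passed in 5 of the 24 fits that left out an array, among them the fit without old activated array 3, where the difference was 1.86 (limma adjusted p = 0.0383). Ces1d averaged 6.77 ± 1.24 in old activated and 5.32 ± 0.96 in young activated cells, a difference of 1.45 ± 0.47 (limma adjusted p = 0.184). The remaining 6 genes differed by between -0.27 and 0.32, with adjusted p of at least 0.633.

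**Figure D3:**
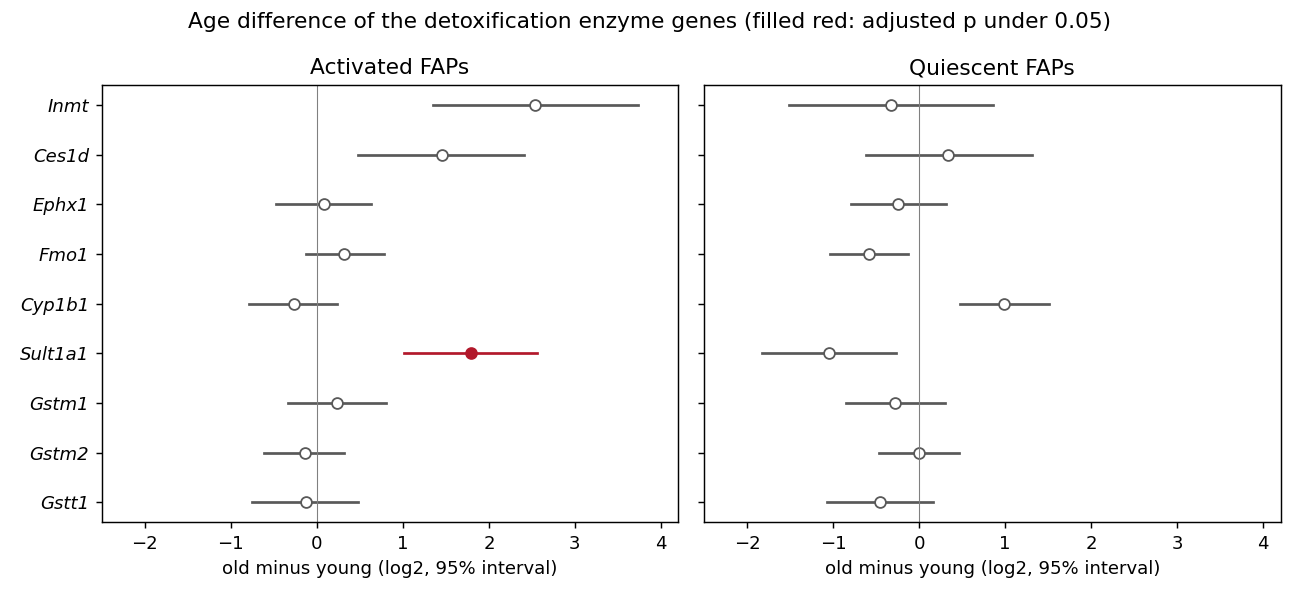
Difference between old and young FAPs (log2, with 95% interval) for 9 detoxification enzyme genes, in activated cells (left) and quiescent cells (right). Filled red points passed an adjusted p of 0.05: Sult1a1 in activated cells, at 1.79.

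The change on activation was then compared between ages directly. It was the mean of the young and old changes, not their difference, that singled out Inmt and Ces1d. For Sult1a1 the change in old cells exceeded that in young cells by 2.84 ± 0.53 on the log2 scale, a smaller fall (limma adjusted p = 0.0186), and 0.198% of all named genes passed this test. It passed in all 24 fits that left out an array, with adjusted p of at most 0.0419, but not with median scaling (adjusted p = 0.108) or with no filter on dim probes (0.0532). For Inmt the difference between changes was 2.87 ± 0.81 (limma adjusted p = 0.166), for Cyp1b1 -1.27 ± 0.35 (limma adjusted p = 0.16) and for Fmo1 0.90 ± 0.31 (limma adjusted p = 0.333). Ces1d gave 1.10 ± 0.66 (limma adjusted p = 0.681), with an interval between -0.26 and 2.46.

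The marker scores of endothelium, red blood cells and muscle fibres were, like Sult1a1, higher in each old activated array than in each young activated one. The endothelium score, over 9 of 10 listed markers with Pecam1 detected on 5 or 6 arrays of every group, ran between 7.23 and 7.48 in old activated, 7.66 and 9.04 in old quiescent, 5.54 and 6.96 in young activated, and 8.48 and 9.41 in young quiescent arrays. The red blood cell score, over 3 markers, was 8.19 to 9.59 in old activated and 6.40 to 8.0 in young activated arrays. The muscle fibre and satellite cell score, over 4 markers, was 6.21 to 8.53 in old activated and 5.06 to 5.90 in young activated arrays. The median age difference of the markers in activated cells was 1.2 for endothelium, 1.72 for red blood cells and 1.5 for muscle fibres, and 2 of 9, 1 of 3 and 1 of 4 of them passed the threshold, all higher in old cells. Of these scores, only that of the endothelium was used as a covariate. Within old quiescent cells, arrays 2, 4 and 1 had the highest endothelium scores, 9.04, 8.71 and 8.44, and also the highest Sult1a1 values, 9.76, 9.58 and 9.32. The activated groups followed this order only in part. Old activated array 3 had both the highest Sult1a1 value, 9.35, and the highest endothelium score, 7.48, of its group, whose scores spanned 7.23 to 7.48. Old activated array 1 had the second highest Sult1a1 value, 7.52, with the lowest score, 7.23. Young activated array 4 was lowest for both, at 4.81 for Sult1a1 and 5.54 for the score. Young activated array 1 had the highest score, 6.96, with a Sult1a1 value of 6.27 below that of array 2. The median change of the 9 endothelial markers on activation was -3.10 in young and -0.73 in old cells. With the endothelium score as a covariate, an alternative added after seeing the data, the age difference of Sult1a1 in activated cells was 0.65 ± 0.44 (limma adjusted p = 0.749) and the difference between changes 1.11 ± 0.65 (adjusted p = 0.806). Beside the covariate, 0 of all named genes passed in either comparison, and the unscaled standard error of these contrasts grew 1.43-fold and 1.49-fold. For Inmt the activation change with the covariate was -6.06 in young and -3.63 in old cells, and for Ces1d -5.57 in young and -4.39 in old cells. Whether any of these cells hold the Sult1a1 signal was not tested.

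**Figure D4:**
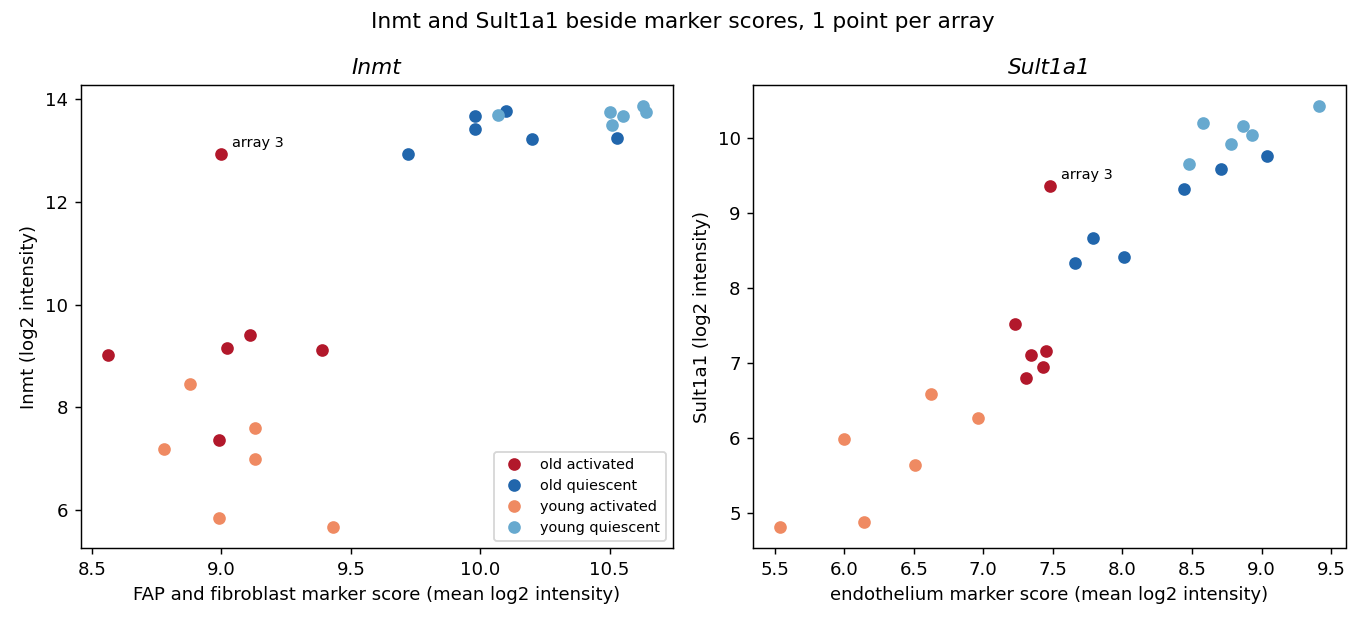
Inmt against the FAP and fibroblast marker score (left) and Sult1a1 against the endothelium marker score (right), 1 point per array, all in mean log2 intensity and coloured by group. Old activated array 3 has Inmt at 12.93 with a FAP score of 9.0, and young activated arrays have the lowest endothelium scores, 5.54 to 6.96, and Sult1a1 values of 4.81 to 6.59.

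The rest of the pathway was taken from a list of 173 other xenobiotic metabolism genes, of which 151 were named on the array and 72 passed the detection filter. On activation in young cells 29 of the 72 changed, 11 higher and 18 lower (40.3%, against 33.8% of all genes), with a median change of -0.27. In old cells 28 changed, 12 higher and 16 lower (38.9%, against 28.4%), with a median of 0.03. With the FAP score as a covariate 2 passed in young and 3 in old cells, and with the macrophage score 7 passed in young and 12 in old cells. Between ages 0 of the 72 passed in quiescent cells, where 13 had an unadjusted p under 0.05 (18.1%, beside 12.7% of all genes), and 1 passed in activated cells.

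Oxidising and reducing enzymes were split. Cyp4f18, a P450 that inactivates leukotriene B4 in mouse leukocytes, averaged 9.06 in young activated and 6.04 in young quiescent cells, a rise of 3.02 ± 0.53 (limma adjusted p = 8.04e-05), and it rose by 1.49 ± 0.53 in old cells (adjusted p = 0.0366). Nqo2, a quinone reductase, rose by 1.77 ± 0.34 in young and 1.70 ± 0.34 in old cells. Cbr2, a carbonyl reductase, averaged 10.94 in old activated and 8.72 in old quiescent cells and rose by 2.21 ± 0.32 (adjusted p = 1.61e-05), and Cyp4f16 rose by 1.39 ± 0.31 in old cells. These rises stood beside the macrophage score, and their relation to it was not tested gene by gene. In the other direction, Adh1, an alcohol dehydrogenase, fell by 2.54 ± 0.38 in young cells (adjusted p = 1.47e-05) and by 1.40 ± 0.38 in old cells. Cyp2d22, a drug-oxidising P450, fell by 1.95 ± 0.33 in young cells and fell by 2.43 ± 0.33 in old cells. Aldh1a1, a retinaldehyde dehydrogenase, averaged 5.05 in old activated and 6.81 in old quiescent cells and fell by 1.76 ± 0.27. In young cells it fell by 1.48 ± 0.27. Its probe was detected on 2 of 6 old activated and 2 of 6 young activated arrays.

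Of 14 glutathione-conjugating genes, 6 changed in young cells, 2 higher and 4 lower (42.9%, beside 33.8% of all genes). In old cells 5 changed, 1 higher and 4 lower (35.7%, beside 28.4%). Gsta3 averaged 5.08 in old activated and 8.94 in old quiescent cells, a fall of 3.86 ± 0.48 (limma adjusted p = 3.13e-06), and 5.50 in young activated and 8.19 in young quiescent cells, a fall of 2.68 ± 0.48. The probe was detected on 2 of 6 old activated and 4 of 6 young activated arrays. Gsto1 rose by 1.95 ± 0.35 and Mgst2, a microsomal transferase, by 1.92 ± 0.59 in young cells (adjusted p = 0.000136 and 0.014). In old cells the same genes gave 0.62 ± 0.35 and 0.16 ± 0.59, which did not pass. Whether these changes differ between ages was tested for all 72 genes, and 0 passed, with 8 at an unadjusted p under 0.05 (11.1%, beside 8.59% of all genes).

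Of 9 transporters, 4 changed in young and 3 in old cells (44.4% and 33.3%, beside 33.8% and 28.4% of all genes). Slco2b1, an organic anion uptake carrier, averaged 9.89 in old activated and 11.94 in old quiescent cells, a fall of 2.05 ± 0.23 (limma adjusted p = 6.41e-07), and fell by 2.96 ± 0.23 in young cells. It was the gene that differed by age in activated cells, 1.10 ± 0.23 higher in old (adjusted p = 0.0302, 6 of 6 arrays above the young mean). With old activated array 1, 2 or 5 or young activated array 3, 4, 5 or 6 left out, 7 of 24 such fits, and with median scaling or the endothelium score as a covariate, 0 of the 72 genes passed. Of 8 regulators of the pathway 0 changed in young cells and 0 in old cells. At an unadjusted p under 0.05 they were 2 in young and 1 in old cells (25% and 12.5%), beside 42.5% and 39.3% of all genes. Nfe2l2, the master activator of antioxidant response genes, differed by -0.48 ± 0.31 in young and 0.07 ± 0.31 in old cells. It was detected on 2 of 6 young activated, 4 of 6 young quiescent, 3 of 6 old activated and 2 of 6 old quiescent arrays. Rxra, Hnf4a and Tiparp were likewise detected on at most 4 of 6 arrays of any group, so changes in these regulators could be missed. Maff was detected on 4 or 5 arrays of each group, and Keap1, Mafg and Rxrb on all 6.

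**Figure D5:**
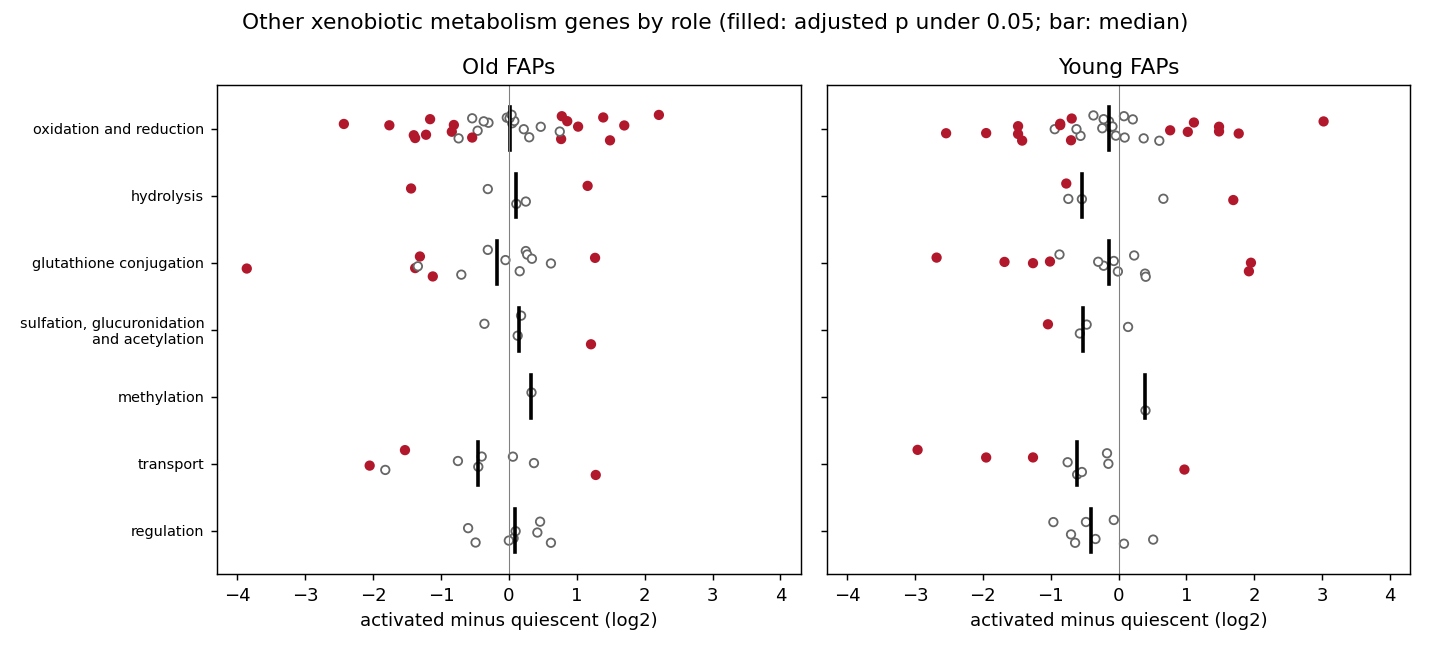
Log2 change on activation of 72 other xenobiotic metabolism genes by role, in old FAPs (left) and young FAPs (right), 1 point per gene. Filled points passed an adjusted p of 0.05 and bars mark the median of a role, and no regulator passed in either age.

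The genes whose pattern was most like Inmt and Ces1d were found over all 24 arrays, as the root-mean-square difference of log2 values centred per gene. Ces1d and Inmt differed from each other by 0.97 on this measure. Outside the enzymes, Ltbp4, a latent TGF-β binding protein, was nearest to both, at 0.82 from Ces1d and 1.24 from Inmt. Timp3, Cldn10, Tnxb and Angptl7 followed for Inmt, between 1.29 and 1.44. Timp3, Tnxb, Crispld2 and Pi16 followed for Ces1d, between 1.09 and 1.16. In old activated array 3 the neighbours of Inmt did not behave alike: Cldn10 stood 3.60 and Angptl7 2.97 above the mean of the other 5 arrays, and Ltbp4 0.29.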

How the data were processed

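FAP RNA was measured on 24 Illumina bead arrays. The intensity of each probe was deposited without normalization, per the file headers, together with its detection p-value. A second table deposited by the authors holds normalized log2 values and served as an alternative. These lay within 0.118 of log2 quantile-normalized intensities, each column had a median of 6.71, and no gene was centred. Partek is named in the submitters' processing notes without its version. Background was corrected from the detection p-values with limma's nec (offset 16), and arrays were quantile-normalized (R 4.3.3, limma 3.58.1). A probe was kept where 6 or more of the 24 arrays had a detection p below 0.01, and the brightest such probe stood for a gene. Gene names came from GEO's platform annotation, updated through Entrez identifiers: 23978 probes had 1 symbol, 0 had several and 1719 had none.

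1 limma model of 4 group means gave 5 contrasts, adjusted by Benjamini-Hochberg over 8148 features, of which 7576 were named genes. Errors of log2 changes are SE from this fit. A marker score is the mean log2 value of a list's kept genes. The 10 genes and all lists were chosen with earlier results of these data known. Named were all 10 genes, from each contrast up to 4 called xenobiotic genes at either end of the changes, and the 5 genes nearest to Inmt and to Ces1d; Nfe2l2 was added after its values were seen. The labels do not say whether replicate numbers pair the arrays, and the model did not use the numbers. Deviations in the 36 pairs of equal number correlated between -0.0903 and 0.365, with 8 pairs above 0.1. Their median was 0.0519, beside -0.0104 for different numbers. Whether this reflects pairing was not tested. The alternatives were other background corrections, scalings, offsets, filters, probe summaries, array weights, moderation, the replicate block, marker scores as covariates and leaving out each array. The steps were tested on simulated data. Each array detected between 6587 and 9943 probes, and precision is limited by how many arrays there are.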

Additional observations from a re-analysis of the deposited data

Results flagged for a closer look

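Among the 40 sets of 6 arrays (10 genes in 4 groups), 3 held a value far from the rest, and chance alone gives about 1 in 20. In old activated cells array 3 had an Inmt value of 12.93, with the next highest array at 9.41, and a Sult1a1 value of 9.35, with the next at 7.52. Fmo2 stood at 5.38 in old activated array 4, with the next at 4.71, although no old activated array detected its probe. The change of Sult1a1 on activation differed between ages by 2.84 (limma adjusted p = 0.0186), which is 1.11 with the endothelium score as a covariate (adjusted p = 0.806).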

How the results depend on the processing

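The number of arrays and the signal over background limit what can be resolved: 1 old activated array detected 6587 probes, and Ces1d and Sult1a1 were near background in young activated cells, where their folds depend on the background correction. Inmt and Ces1d stayed lower on activation in both ages in each alternative that measured them. Over the settings other than leaving out an array, Inmt lay between -7.36 and -5.91 in young and between -4.34 and -3.63 in old cells, and Ces1d between -6.49 and -3.74 in young and between -5.12 and -3.42 in old cells. With an array left out, Inmt lay between -7.04 and -6.47 in young and between -4.58 and -3.44 in old cells. Other enzyme genes depended on the marker scores. Over the settings other than leaving out an array, young Sult1a1 lay between -5.96 and -1.69 and Cyp1b1 between 0.47 and 3.28. Gstt1 lay between -3.30 and -0.60, Ephx1 between -2.65 and -0.77 and Gstm1 between -2.84 and -1.71. The smallest changes came with the endothelium score (Sult1a1, Cyp1b1), the macrophage score (Gstt1, Ephx1) and the FAP score (Gstm1). The cause of the shifts below was not tested, save that stricter filters test fewer genes.

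On activation in young cells (2559 genes and 29 other xenobiotic genes called), keeping only probes detected on all 24 arrays gave 1502 and 19. The macrophage score as a covariate gave 911 genes and 7 xenobiotic genes, the FAP score 417 and 2, and the endothelium score 810 and 12. In old cells (2155 and 28) the all-array filter gave 1291 and 18, the macrophage score 706 and 12, and the FAP score 151 and 3. With age in quiescent cells (46, 0 and 0 of the 9 enzyme genes), median scaling gave 29 genes, no filter 30 and 1 xenobiotic gene, array weights 78 and 2, and the endothelium score 101 and 1. There the all-array filter and the macrophage score each gave 1 enzyme gene, Cyp1b1, beside 1 and 2 xenobiotic genes, the FAP score gave 1 enzyme gene and trend with robust moderation 1 xenobiotic gene.

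With age in activated cells (21, 1 and 1), median scaling gave 8 genes, cyclic loess 35, the all-array filter 37, array weights 132, trend and robust 43, the FAP score 33 and the endothelium score 0. Xenobiotic genes were 0 with median scaling and the endothelium score, 3 with array weights, and 2 with no background correction, the deposited values, cyclic loess, the all-array filter, trend and robust, and the FAP score. Enzyme genes were 2 (Inmt beside Sult1a1) with cyclic loess, array weights, and trend and robust. They were 0 with no background correction, the deposited values, median scaling, an offset of 50, no filter, and the macrophage and endothelium scores. For the difference between changes (15, 0 and 1), median scaling gave 6 genes, no filter 9, array weights 28, the macrophage score 58, the FAP score 53 and the endothelium score 0. The macrophage score gave 1 xenobiotic gene. Enzyme genes were 0 with median scaling, no filter, the all-array filter, where Sult1a1 is not tested, and the endothelium score, and 2 with the FAP score.

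Leaving out each array in turn gave 2338 to 2688 genes and 27 to 31 xenobiotic genes for activation in young cells, and 1953 to 2300 and 24 to 30 in old cells. It gave 28 to 105 genes, 0 to 1 xenobiotic genes and 0 to 1 enzyme genes for age in quiescent cells (Cyp1b1, in 1 fit), 10 to 102, 0 to 3 and 0 to 2 for age in activated cells, and 8 to 39, 0 and 1 for the difference between changes. The lowest and highest counts with age in activated cells came without young activated arrays 3 and 1.

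Small differences changed sign under some settings. Gstm2 on activation was 0.42 in young and 0.05 in old cells with the macrophage score and 0.59 in young and 0.19 in old cells with the FAP score, and Cyp1b1 in old cells -0.06 with the endothelium score. With age in quiescent cells the macrophage score gave 0.30 for Ephx1, 0.05 for Gstm1, 0.42 for Gstm2 and 0.11 for Gstt1. Gstm2 there was 0.02 with cyclic loess, 0.01 with array weights and 0.28 with the FAP score, and up to 0.10 with an array left out, its lowest value being -0.05. With age in activated cells Ephx1 was -0.07 with array weights and between -0.11 and 0.22 with an array left out. Cyp1b1 was 0.21 with the endothelium score, Gstm2 0.04 with the macrophage and 0.20 with the endothelium score, and Gstt1 0.11 and 0.52. With an array left out Gstm2 ran between -0.33 and 0.03 and Gstt1 between -0.40 and 0.06. The difference between changes of Gstm2 was 0.01 with the mean of all kept probes, 0.39 with the endothelium score, and between -0.33 and 0.03 with an array left out.

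The replicate number was also used as a block, although the labels do not say that it pairs the arrays. This gave 2621 genes for activation in young and 2264 in old cells. It gave 50 with age in quiescent cells, 28 with age in activated cells and 15 for the difference between changes. Of the 24 arrays, 8 correlated best with one of their own number. Under the block the age difference in activated cells was 2.54 for Inmt (adjusted p = 0.0491) and 1.79 for Sult1a1 (adjusted p = 0.0559).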

Other observations

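The genes that stood highest in old activated array 3, against the mean of the other 5 old activated arrays, were ranked over 7471 named genes after the array had been seen to stand apart, so the ranks are a description. Inmt ranked 1, at 4.12 above that mean, and Sult1a1 and Ces1d ranked 21 and 22. Cldn10, a tight junction claudin, was 8.76 in array 3 and between 4.31 and 5.85 in the other arrays. Gsta3, a glutathione transferase, was 7.82, against 4.23 to 5.17, and Adh1 was 12.24, against 8.48 to 10.28. Apod, a lipocalin, was 9.52, against 6.00 to 7.59, and Scara5, a scavenger receptor, was 10.12, against 6.88 to 7.69.

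Of the 15 genes ranked highest, 11 were called lower on activation in both ages. Of all 7576 named genes, 1267 were called lower in young and 1058 in old cells, each age taken by itself. At most 1058 of the 7576 can therefore have been called lower in both ages. The 15 include Inmt, which was chosen for its fall, and nothing is read from this count. Fjx1 and Cxcl13 stood farther from the old quiescent mean in this array than the mean of the other 5 arrays did. Fjx1 was 7.22 in array 3, averaged 4.47 in the other 5 arrays and 5.04 in old quiescent cells. Cxcl13 was 9.28 in array 3, averaged 6.59 in the other 5 arrays and 7.07 in old quiescent cells. A difference of 2 or more on the log2 scale was found for 39 genes, and of 1 or more for 468.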
